A study of Homo sapiens with 19 samples.

Results

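The genes described here are those of the insulin-like growth factor (IGF) axis in human colon cancer cell lines: the receptors IGF1R, IGF2R and INSR, the ligand IGF2, the adaptors IRS1 and IRS2, and the binding proteins IGFBP2, IGFBP3, IGFBP4 and IGFBP6. All probe sets that the platform annotation gives to 1 of these genes alone were taken. That rule found 23 probe sets for 9 of the 10 genes, out of 54613 probe sets and 19775 genes in all. IGF2 had 0 such probe sets, since the 3 that name it name INS-IGF2 as well, so no level is given for IGF2 alone. Values of those 3 probe sets are given under other observations. The genes were chosen with the comparison of microsatellite unstable with microsatellite stable lines already in view, and the pattern of an IGF1R probe set in it was part of that choice. Values of these genes in that comparison are therefore a description and carry no test.

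IGF1 and IGF2 are secreted growth factors that bind IGF1R, a receptor tyrosine kinase at the cell surface. The activated receptor, like the insulin receptor INSR, phosphorylates the adaptors IRS1 and IRS2, which recruit PI3-kinase and so switch on AKT and mTOR. IGF2R carries IGF2 to the lysosome and does not signal through a kinase of its own, and the binding proteins hold IGFs outside the cell and alter their access to the receptors. In colon cancer the axis is known for growth and survival signalling, and for excess IGF2 in a subset of tumours.

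Expression was measured on Affymetrix arrays in 5 lines labelled MSI (microsatellite unstable), namely HCT116, LIM2405, LS174T, RKO and SW48, and in 5 labelled MSS (microsatellite stable), namely CACO2, HCC2998, HT29, SKCO1 and T84. Microsatellite instability is the build-up of length changes in short DNA repeats in cells that lack mismatch repair. All lines were untreated, grown in DMEM with 10% fetal bovine serum and harvested in exponential growth, and no line had a genetic change introduced by the study. Each line was grown and arrayed in duplicate (cultures E1 and E2), except that 1 array of T84 was used, which gives 10 MSI and 9 MSS arrays. The arrays of a line were averaged, so the line is the replicate (n = 5 per group) and each line is a single established culture from 1 tumour. Because the serum and the medium were shared by all lines, the values describe RNA in cells growing with serum factors present.

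Values are log2 expression values made with RMA, a method that corrects background, normalizes arrays to each other and summarizes the probes of a probe set. They ran from 2.78 to 14.92 with a median of 5.67, and array medians lay between 5.63 and 5.71. Near the median and below it background makes up much of the signal, so differences there are understated. Levels of different probe sets are not comparable with each other, because each has its own probe affinities. Duplicate cultures correlated between 0.9777 in HT29 and 0.9961 in HCT116 over all probe sets, and 8 of the 23 IGF axis probe sets had their largest duplicate difference in LS174T. Of the 8 epithelial markers looked up, EPCAM, KRT8, KRT18, CDX1 and CDX2 lay above the table median in all 10 lines. CDH1 and KRT19 lay below it in RKO, at 3.95 and 4.81, and VIL1 lay below it in LIM2405, at 5.22. Among markers of other cells, the leukocyte gene PTPRC, the T cell gene CD3E, the fibroblast genes COL3A1 and LUM and the endothelial gene CDH5 lay above the median in 0 lines, while COL1A1 (7.65 to 8.09), PECAM1 (6.09 to 6.64) and VWF (5.68 to 6.05) lay above it in all 10 within a narrow range. CD14 reached 8.35 and PDGFRB 6.55, both in CACO2. COL1A2 exceeded the median in 2 lines and DCN in 1 line.

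The sequence just upstream of the annotated start is shown for IGF1R, whose probe sets ordered the lines differently, and for IGFBP3, whose probe sets moved together. The windows hold the 250 bases before the start in RefSeq, build GRCh38.p14, 5′ to 3′ on the strand of the gene, at chr15:98648289-98648538 (plus strand) for IGF1R and chr7:45921273-45921522 (minus strand) for IGFBP3. Capitals mark GC boxes, the letters GGGCGG on either strand.
IGF1R: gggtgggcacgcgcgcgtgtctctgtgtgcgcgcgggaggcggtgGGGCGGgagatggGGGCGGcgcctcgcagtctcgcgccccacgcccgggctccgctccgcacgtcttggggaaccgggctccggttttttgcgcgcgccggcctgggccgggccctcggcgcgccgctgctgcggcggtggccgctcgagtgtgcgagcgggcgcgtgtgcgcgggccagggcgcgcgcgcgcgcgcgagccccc
IGFBP3: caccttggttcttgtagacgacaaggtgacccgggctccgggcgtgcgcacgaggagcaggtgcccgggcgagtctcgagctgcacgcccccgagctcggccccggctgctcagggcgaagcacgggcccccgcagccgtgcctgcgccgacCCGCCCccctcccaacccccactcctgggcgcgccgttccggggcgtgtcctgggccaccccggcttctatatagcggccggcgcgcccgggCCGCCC
Both windows held 2 GC boxes and neither held TATAAA or CCAAT on either strand. The IGF1R window was 81.2% G and C with 48 CpG dinucleotides, and the IGFBP3 window 76.0% with 32, against a median of 58.0% G and C over 35116 windows of the same length. A GC box was present in 42.6% of all those windows, TATAAA in 10.7% and CCAAT in 32%. Among the 11 windows of the 9 genes, the IGFBP4 window held 1 TATAAA, the IRS2 window 2 CCAAT and 1 of the 3 IGFBP2 windows 1 CCAAT. A match of letters is a description of the sequence and not a binding site.

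IGF1R, on chromosome 15, had 5 probe sets, and they did not order the lines alike. With 203628_at the MSI lines read 5.63 in HCT116, 5.38 in LIM2405, 4.57 in LS174T, 4.94 in RKO and 5.24 in SW48. With the same probe set the MSS lines read 8.40 in CACO2, 10.00 in HCC2998, 8.49 in HT29, 10.42 in SKCO1 and 9.44 in T84. Every MSI line was below the median of all values and every MSS line far above it, and the groups were 2.76 apart at their nearest. The MSI mean was 5.15 ± 0.41 and the MSS mean 9.35 ± 0.90 (SD, n = 5 lines each), a log2 difference of -4.20, or 18.3-fold lower in MSI lines. This is the difference on which IGF1R was chosen, so it is given with no test. It ran from -4.43 to -3.93 over all alternative settings, leaving out any 1 line included. The MSI values were at the level of dim probe sets, where differences are understated. In RNA from a whole culture, fewer cells that express a gene and less RNA per cell cannot be told apart.

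The brightest IGF1R probe set, 225330_at, gave another picture. It read 9.07 in HCT116, 9.06 in LIM2405, 10.19 in LS174T, 9.02 in RKO and 10.03 in SW48 among the MSI lines. In the MSS lines it read 9.67 in CACO2, 10.07 in HCC2998, 9.74 in HT29, 11.53 in SKCO1 and 9.88 in T84. LS174T and SW48, low by 203628_at, were the second and the fourth highest of the 10 lines here, and the groups overlapped. The means were 9.47 ± 0.58 in MSI and 10.18 ± 0.77 in MSS lines, a difference of -0.70, which became -0.37 without SKCO1. All 10 lines lay well above the table median with this probe set. In the order of levels, only SKCO1 over LS174T and CACO2 over HCT116 were separated by more than the largest gap between duplicates, 0.51, so the other neighbours cannot be ranked.

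Another IGF1R probe set, 203627_at, gave an intermediate pattern. It read 5.31 in HCT116, 6.81 in LIM2405, 7.33 in LS174T, 8.07 in RKO and 6.93 in SW48. The MSS lines gave 7.54 in CACO2, 9.30 in HCC2998, 7.55 in HT29, 8.75 in SKCO1 and 8.82 in T84. RKO, an MSI line, was above both CACO2 and HT29, and HCT116 alone lay below the table median. The means were 6.89 ± 1.01 and 8.39 ± 0.80, a difference of -1.50. Of the neighbours in that order, only LIM2405 and HCT116 were further apart than the largest duplicate difference of 0.70.

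Both remaining IGF1R probe sets varied less. With 243358_at the lines ran from 5.77 in T84 to 7.42 in SKCO1, with a mean of 6.23 ± 0.35 in MSI and 6.57 ± 0.61 in MSS lines, and all 10 lines above the table median. With 208441_at all 10 lines lay between 4.92 and 5.21, below the table median, and the range of 0.28 was smaller than the largest duplicate difference of 0.44. That probe set therefore separated no lines.

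**Figure D1:**
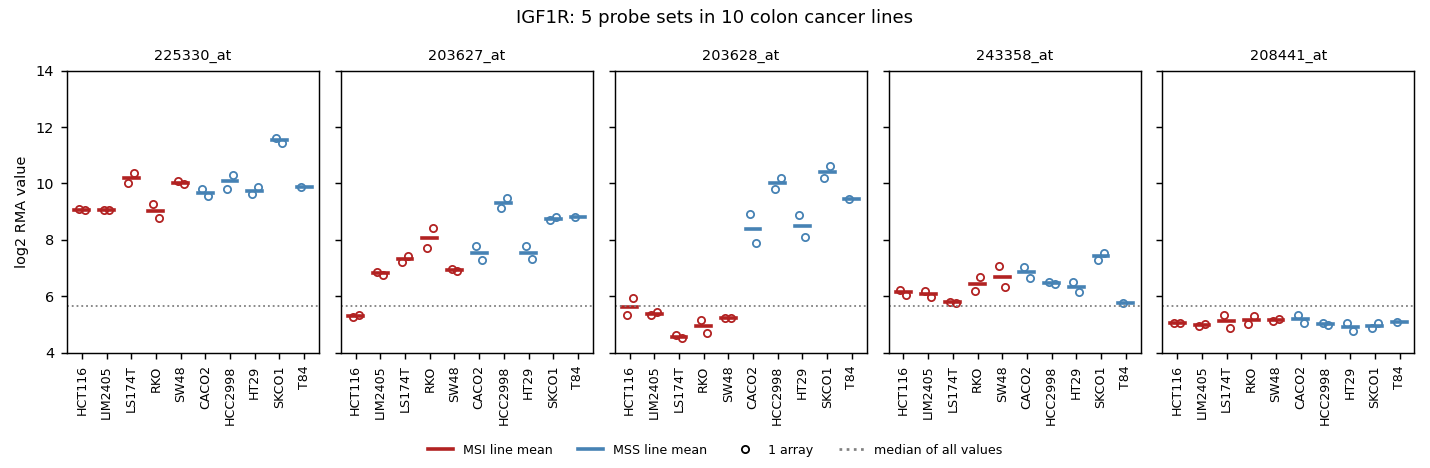
Log2 RMA values (vertical axis) of the 5 IGF1R probe sets in the 10 lines (horizontal axis), with open circles for single arrays, bars for line means and a dotted line at the median of all values, 5.67. With 203628_at the 5 MSI lines sit between 4.57 and 5.63 and the 5 MSS lines between 8.40 and 10.42, while with 225330_at all 10 lines sit between 9.02 and 11.53.

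The disagreement can be put line by line. The value of 225330_at minus that of 203628_at was 3.44 in HCT116, 3.68 in LIM2405, 5.61 in LS174T, 4.08 in RKO and 4.80 in SW48. The same difference was 1.28 in CACO2, 0.07 in HCC2998, 1.25 in HT29, 1.11 in SKCO1 and 0.44 in T84. The size of such a difference has no meaning by itself, because the probe sets have their own affinities, but it was larger in every MSI line than in any MSS line. Within the MSS lines 203628_at correlated with 225330_at at r = 0.80 and with 203627_at at 0.88. Over all 10 lines the values were 0.59 and 0.70, which include the offset between the group means on which IGF1R was chosen. Within the MSI lines they were -0.58 and -0.77, but all 5 MSI values of 203628_at lay below the table median, so their order there is that of background values and nothing is read from it. These correlations are descriptions over lines measured on the same arrays. Which transcripts each probe set reads was not examined, and the cause of the disagreement was not tested.

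IGF2R, on chromosome 6, the receptor that clears IGF2, was lower on average in MSI lines with all 3 of its probe sets, though no group of lines stood clear of the other. With 201393_s_at the MSI lines read 9.40 in HCT116, 11.11 in LIM2405, 9.18 in LS174T, 10.72 in RKO and 10.35 in SW48. The MSS lines read 10.56 in CACO2, 11.40 in HCC2998, 10.92 in HT29, 10.98 in SKCO1 and 11.82 in T84. HCT116 and LS174T were the lowest of the 10, and LIM2405 sat among the MSS lines. The means were 10.15 ± 0.84 and 11.14 ± 0.49, a difference of -0.98. The duplicates of LS174T were 8.38 and 9.99, and this gap of 1.61 is larger than any between neighbouring lines.

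The second IGF2R probe set, 201392_s_at, placed T84 highest at 10.11 and LS174T lowest at 6.58, and the MSI minus MSS difference was -1.32. It ordered the lines much as 201393_s_at did, with r = 0.93 over 10 lines, 0.86 within MSI and 0.95 within MSS lines. HCT116 over LS174T was its only neighbouring pair further apart than the duplicates, with 0.96 as the largest duplicate difference. The third, 1569052_at, lay around the table median, from 4.65 in SW48 to 6.20 in SKCO1, and correlated with 201393_s_at at 0.27.

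INSR, on chromosome 19, is the receptor for insulin and a partner of IGF1R in hybrid receptors. By the brightest probe set of each of the 9 genes it had the narrowest range. With 213792_s_at, its brightest probe set, it read 9.51 in HCT116, 9.76 in LIM2405, 9.00 in LS174T, 10.11 in RKO and 9.62 in SW48. Among the MSS lines it read 9.29 in CACO2, 9.35 in HCC2998, 8.25 in HT29, 9.21 in SKCO1 and 9.73 in T84. HT29 was the lowest line here and with 3 of the other 4 INSR probe sets. The means were 9.60 ± 0.41 in MSI and 9.17 ± 0.55 in MSS lines, a difference of 0.43 that became 0.21 without HT29. The LS174T duplicates, 8.19 and 9.81, were further apart than any neighbouring lines. The MSI mean was higher with all 5 INSR probe sets, by 0.21 to 0.93, and the groups overlapped in each. With 226216_at the difference turned to -0.02 when HT29 was left out.

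INSR 226212_s_at had the widest range of the 5. It read 7.52 in HCT116, 8.50 in LIM2405, 7.11 in LS174T, 7.31 in RKO and 6.92 in SW48. The MSS lines gave 7.11 in CACO2, 7.07 in HCC2998, 5.56 in HT29, 6.36 in SKCO1 and 6.60 in T84. LIM2405 above HCT116 and SKCO1 above HT29 were its only neighbours separated by more than the largest duplicate difference of 0.48. It moved with 226450_at (r = 0.98), whereas 207851_s_at correlated with the brightest probe set at 0.31 only and had T84 lowest at 5.71 and SW48 highest at 7.15.

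IRS1, on chromosome 2, the adaptor first found below the insulin receptor, was highest in SW48. With 204686_at it read 9.80 in HCT116, 8.82 in LIM2405, 9.48 in LS174T, 7.71 in RKO and 10.84 in SW48. In MSS lines the values were 8.63 in CACO2, 8.45 in HCC2998, 9.01 in HT29, 9.92 in SKCO1 and 7.59 in T84. Each group held both high and low lines, so the spread within a status was larger than the gap between them. The means were 9.33 ± 1.16 and 8.72 ± 0.85, a difference of 0.61 that ran from 0.23 without SW48 to 1.01 without RKO. No neighbouring lines were further apart than the largest duplicate difference, 0.92 in CACO2, although the range over the 10 lines was 3.25.

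The other IRS1 probe sets set HCT116 and SW48 apart more clearly. With 238933_at HCT116 read 9.28 and SW48 9.31, and the other 8 lines ran from 6.02 in LS174T to 8.38 in CACO2. With 242979_at HCT116 read 9.41 and SW48 9.19, and the other 8 lines ran from 5.20 in RKO to 7.36 in SKCO1. The step below this pair exceeded the largest duplicate difference with both probe sets. Of the MSI minus MSS differences, -0.07 and 0.36, the first became 0.32 without LS174T and the second -0.13 without HCT116, so neither has a settled sign. LS174T was the lowest line with 238933_at but the fourth highest with 204686_at.

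IRS2, on chromosome 13, the second adaptor, was lowest in SKCO1. With 209185_s_at it read 10.43 in HCT116, 12.73 in LIM2405, 12.84 in LS174T, 10.42 in RKO and 10.95 in SW48. The MSS lines read 9.79 in CACO2, 11.60 in HCC2998, 11.20 in HT29, 8.84 in SKCO1 and 9.99 in T84. LS174T and LIM2405 stood above the rest by more than the largest duplicate difference of 0.97, and all other neighbours were closer than that. The means were 11.48 ± 1.22 and 10.28 ± 1.11, a difference of 1.19. The other probe set, 209184_s_at, ran from 7.37 in SKCO1 to 10.69 in LIM2405, with r = 0.86 to the first. It placed LS174T lower in the order, at 9.22, but the LS174T duplicates were 8.50 and 9.94, so that place is uncertain. The CACO2 duplicates of this probe set differed by 1.47, more than any neighbouring lines.

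**Figure D2:**
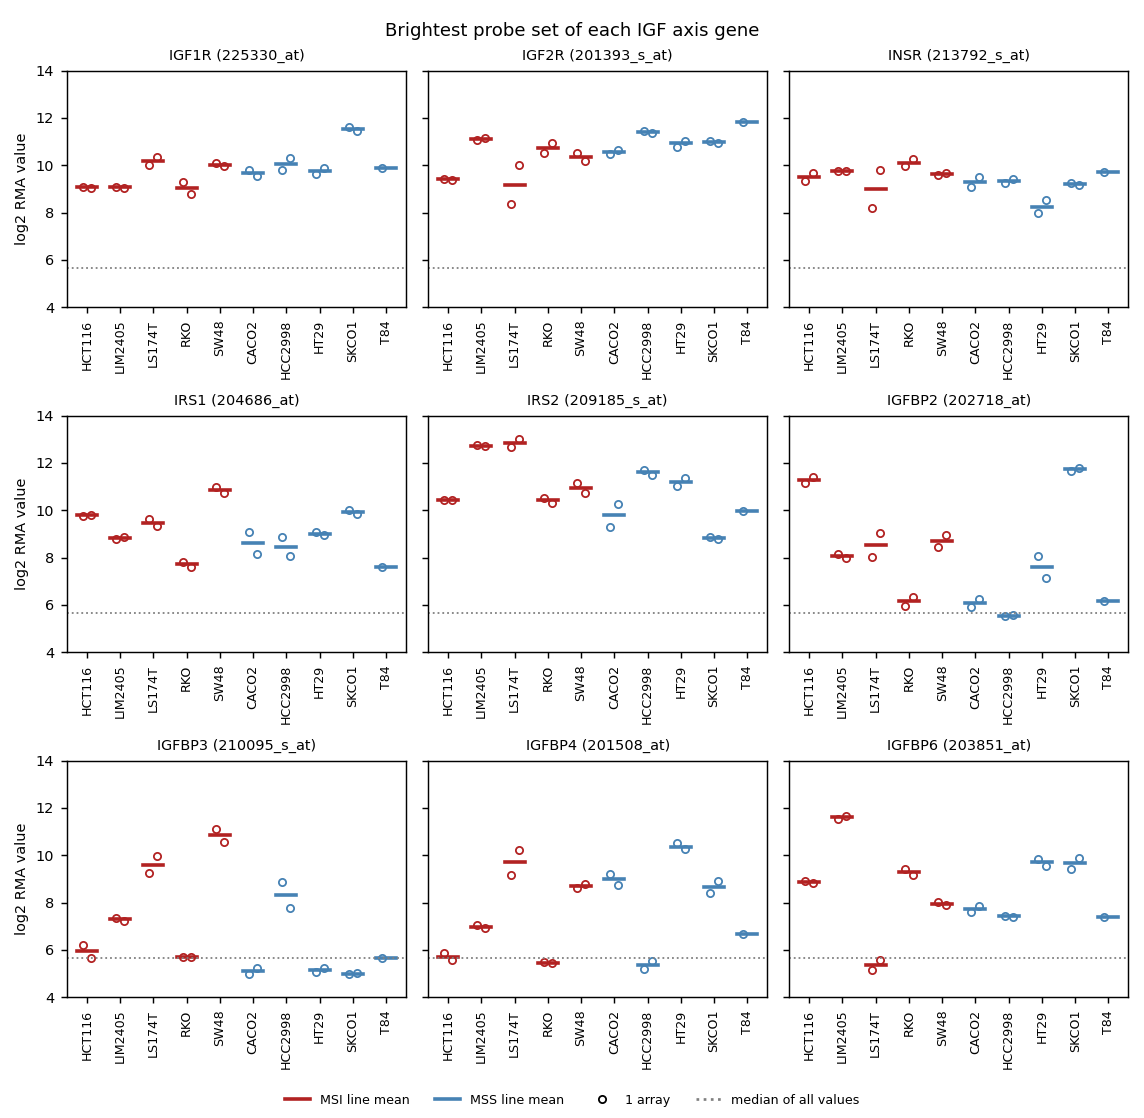
Log2 RMA values (vertical axis) of the brightest probe set of each of the 9 genes in the 10 lines (horizontal axis), with circles for arrays, bars for line means and a dotted line at 5.67. The binding proteins span the widest ranges, from 5.35 to 11.61 for IGFBP6 and from 5.55 to 11.73 for IGFBP2, and INSR the narrowest, from 8.25 to 10.11.

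The 4 binding proteins ranged over at least 32.3-fold to 76.4-fold between lines, and each had its own set of high lines. These folds are lower bounds, because the lowest line of each lay below the table median. IGFBP2, on chromosome 2, read 11.28 in HCT116, 8.07 in LIM2405, 8.53 in LS174T, 6.15 in RKO and 8.70 in SW48 with 202718_at. Values in the MSS lines were 6.07 in CACO2, 5.55 in HCC2998, 7.60 in HT29, 11.73 in SKCO1 and 6.16 in T84. SKCO1 and HCT116 stood more than the largest duplicate difference of 1.01 above all others, and T84, RKO, CACO2 and HCC2998 formed a low group near the table median. The range was at least 72.7-fold. The MSI minus MSS difference of 1.12 (8.55 ± 1.84 against 7.42 ± 2.53) was smaller than either SD and moved between 0.44 without HCT116 and 2.20 without SKCO1.

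IGFBP3, on chromosome 7, the main carrier of IGFs in serum, was high in few lines. With 210095_s_at the MSI lines read 5.94 in HCT116, 7.30 in LIM2405, 9.61 in LS174T, 5.71 in RKO and 10.85 in SW48. The MSS lines gave 5.11 in CACO2, 8.33 in HCC2998, 5.14 in HT29, 5.00 in SKCO1 and 5.66 in T84. SW48, LS174T, HCC2998 and LIM2405 formed a high set in both groups of lines, and the other 6 lay between 5.00 and 5.94, near the table median. The means were 7.88 ± 2.27 and 5.85 ± 1.41, a difference of 2.03 that was smaller than the MSI SD and became 1.29 without SW48 and 2.65 without HCC2998. HCC2998 was the lone high MSS line, with duplicates of 8.88 and 7.79.

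The second IGFBP3 probe set had the same 4 lines highest. Only SW48 stood above the next line by more than the largest duplicate difference, 0.99. LIM2405 lay near the table median, and its step of 0.88 over T84 was smaller than that difference. With 212143_s_at SW48 read 9.22, LS174T 7.09, HCC2998 6.79 and LIM2405 5.97, and the other 6 lines lay between 4.59 in CACO2 and 5.09 in T84. The correlation with 210095_s_at was 0.98 over the 10 lines, and 0.97 within the MSI lines, while among the MSS lines HCC2998 alone stood out with both. This is the closest match between probe sets of a gene here, beside that of INSR 226450_at and 226212_s_at.

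**Figure D3:**
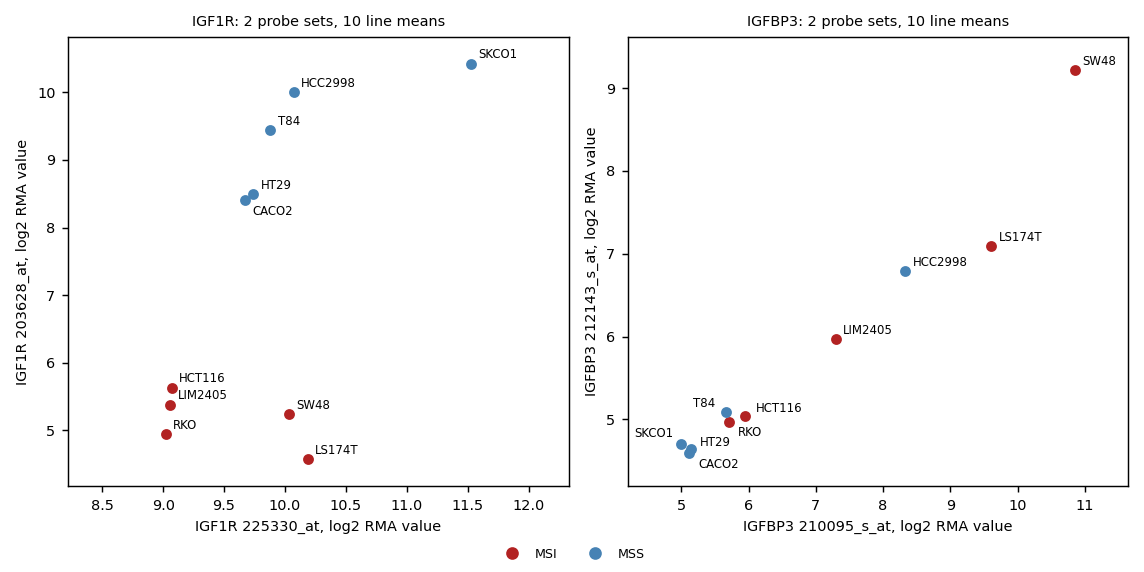
Log2 RMA line means of a pair of probe sets of IGF1R (left) and of IGFBP3 (right), with 1 point per line, MSI in red and MSS in blue. For IGFBP3 the 10 points follow 1 rising line (r = 0.98), and for IGF1R the MSI and MSS points lie in separate bands, with the MSI points between 4.57 and 5.63 on 203628_at.

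IGFBP4, on chromosome 17, an inhibitory binding protein that the protease PAPPA cleaves, read 5.72 in HCT116, 6.98 in LIM2405, 9.70 in LS174T, 5.45 in RKO and 8.70 in SW48 with 201508_at. In the MSS group it read 8.99 in CACO2, 5.36 in HCC2998, 10.37 in HT29, 8.65 in SKCO1 and 6.66 in T84. A high set of HT29, LS174T, CACO2, SW48 and SKCO1, drawn from both groups, was separated from LIM2405 and the rest by more than the largest duplicate difference of 1.07. HCT116, RKO and HCC2998 lay near or below the table median. The MSI minus MSS difference of -0.70 (7.31 ± 1.85 against 8.01 ± 1.99) shrank to -0.11 without HT29.

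IGFBP6, on chromosome 12, which binds IGF2 more tightly than IGF1, ranged over at least 76.4-fold, with its lowest line below the table median. With 203851_at it read 8.87 in HCT116, 11.61 in LIM2405, 5.35 in LS174T, 9.29 in RKO and 7.96 in SW48. MSS lines read 7.72 in CACO2, 7.42 in HCC2998, 9.71 in HT29, 9.66 in SKCO1 and 7.38 in T84. LIM2405 was clear above all other lines and LS174T clear below them, and both are MSI lines. The means of 8.62 ± 2.27 and 8.38 ± 1.20 differed by 0.24, a sign that turned to -0.51 without LIM2405. Its duplicates differed by at most 0.46, the smallest such value among the binding proteins.

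Whether the genes vary between lines beyond duplicate error was asked among lines of the same status. A limma moderated F test was run over all 54613 probe sets, and its contrasts carry no part of the MSI minus MSS difference. Of the 23 probe sets, 21 passed a Benjamini-Hochberg adjusted p of 0.05. The exceptions were IGF1R 208441_at, with an adjusted p of 0.765, and INSR 213792_s_at, with 0.072, which passed when LS174T was left out (0.00298). The p-values measure the spread between duplicate cultures of a line, so they say that lines differ and not how lines in general vary. In this comparison 58.2% of all probe sets passed, and 83.4% of the 27961 probe sets whose mean was at or above the table median, a class that holds 21 of the 23. By brightest probe set per gene, 64.8% of 19775 genes passed. Of those 21, 20 (95.2%) passed, and nothing particular to these genes is read from that. IGFBP6 had the smallest adjusted p, 9.44e-10, followed by 3.44e-08 for IGFBP2, 4.35e-08 for IGFBP4 and 1.06e-07 for IGFBP3 210095_s_at.

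Among receptors and adaptors the same test gave 5.27e-06 for IGF1R 203627_at, 2.08e-05 for 225330_at, 0.0032 for 243358_at and 0.00142 for 203628_at. For the last of these it means that lines of the same status differed too, as HCC2998 and SKCO1 at 10.00 and 10.42 against CACO2 at 8.40 show. The CACO2 duplicates of 203628_at were 8.91 and 7.88, and this gap of 1.03 was the largest duplicate difference of that probe set. IRS1 gave 5.84e-07 with 238933_at, and IRS2 gave 1.24e-06 with 209185_s_at. IGF2R gave 4.72e-05 with 201392_s_at and 0.00351 with 201393_s_at. The median SD over the 10 lines was 1.01 for these 23 probe sets, 0.35 over all probe sets and 0.56 over those at or above the median brightness.

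Set out by status, 9 of the 23 probe sets were lower and 14 higher in MSI lines by mean, with a median log2 difference of 0.24 beside 0.05 over all probe sets. The limma moderated t-statistic called 1 of the 23 lower in MSI lines, IGF1R 203628_at, and 0 higher. Of all probe sets, 0.141% were called lower and 0.189% were called in either direction. Since the genes were chosen on this contrast, nothing is read from that count. The same holds for the 1 probe set whose groups did not overlap, again 203628_at, against 2.70% of all probe sets.

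**Figure D4:**
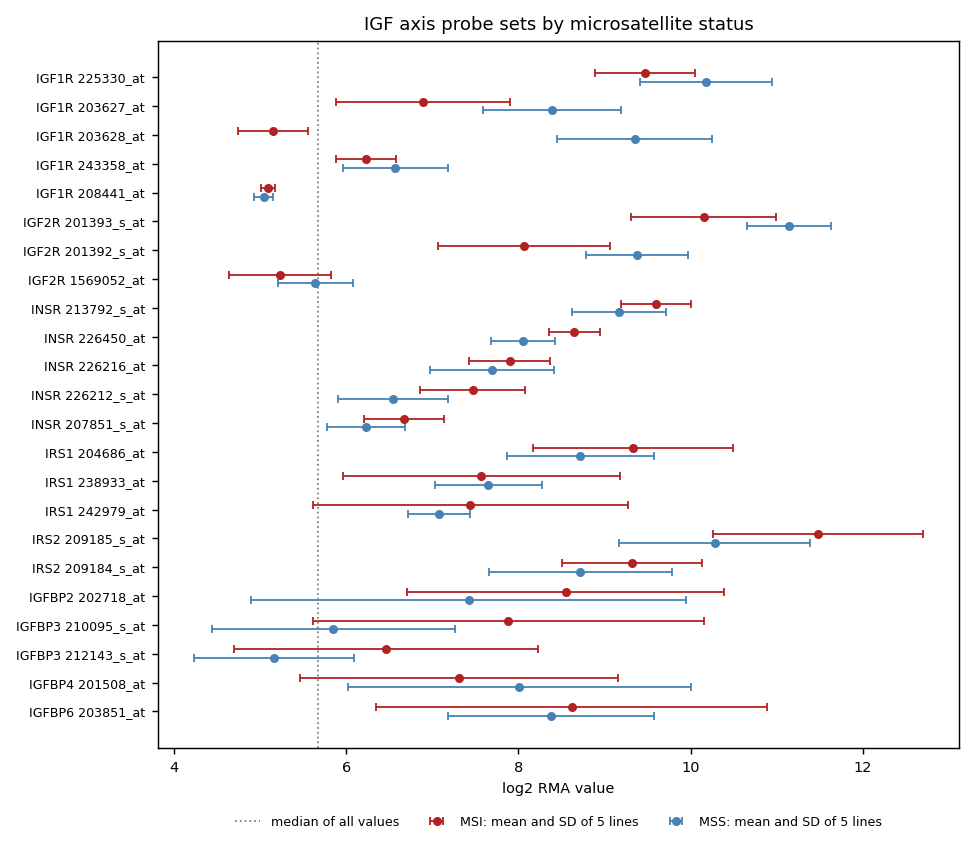
Mean log2 RMA value of each of the 23 probe sets (horizontal axis) in the 5 MSI lines (red) and the 5 MSS lines (blue), with bars for 1 SD over lines. Only IGF1R 203628_at has groups without overlap, at 5.15 ± 0.41 and 9.35 ± 0.90.

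Levels of the 9 genes showed few parallels over the lines. Of 36 pairs, taken by the brightest probe set of each gene, the highest correlation was that of IRS1 with IGFBP2 (r = 0.74, rho = 0.84), both high in SKCO1 and HCT116 and low in T84. IRS2 and IGFBP3 followed (r = 0.62, rho = 0.76), both high in LS174T. INSR 213792_s_at and IGFBP4 ran in opposite directions (r = -0.74, rho = -0.67), with HT29 and LS174T high in the binding protein and lowest in the receptor. The LS174T duplicates of that INSR probe set were far apart, at 8.19 and 9.81. LS174T was among the higher lines with INSR 226216_at (8.21) and 226450_at (8.43). It was in the middle with 226212_s_at (7.11) and among the lower lines with 207851_s_at (6.04). The adaptors IRS1 and IRS2 were unrelated to each other (r = 0.03). These correlations describe 10 lines that share arrays.

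For genes with an SD over lines of at least 1, the genes most alike in pattern were looked up among 2644 genes with such an SD, by Pearson's r over the 10 line values. IGF1R 203628_at was most like RNLS (0.95), SEC22B (0.94) and PIK3R1 (0.91). These values include the offset between the group means on which IGF1R was chosen, so a gene that splits by status ranks high. No link between the genes is read from them. IGF1R 203627_at had another set, PLBD1 (0.90), FUT4 (0.86) and SPRY1 (0.84). IRS1 was most like KDELR3 (0.89), PPP3CA (0.87) and PLK2 (0.86), and IGFBP2 like PPP3CA (0.91), ZNF185 (0.87) and RFX3 (0.86), so PPP3CA was shared by both. For IRS2 the nearest were NR3C2 (0.91), TRIQK (0.89) and FOXP2 (0.87). IGFBP3 was nearest to ZNF117 (0.89), LINC00960 (0.86) and SERPINI1 (0.85). IGFBP4 was nearest to MLLT3 (0.84), FOXA1 (0.83) and IQGAP2 (0.82), and IGFBP6 to ATP6V1C1 (0.86), PNMA1 (0.84) and VCPIP1 (0.83). With 2644 candidates and 10 lines high values arise easily, and these names carry no test.

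The wider pathway was taken from a list of 57 genes outside the 9, of which 52 had a single-gene probe set, and the others were not analysed here. Between lines of the same status 40 of the 52 passed the limma F test, beside 64.8% of all genes. Of the 7 ligands and carriers, 3 passed. IGFBP7, a distant relative of the binding proteins, stood at 9.37 in CACO2 and no higher than 7.44 elsewhere (adjusted p = 1.69e-06). IGFALS, which holds IGF and IGFBP3 in a larger complex, and IGF1 passed with ranges of 0.69 and 0.76, while INS, IGFBP1, IGFBP5 and IGFBPL1 did not.

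Of the 5 regulators of the binding proteins 3 passed. STC2, an inhibitor of PAPPA, ranged from 5.04 in HT29 to 11.08 in T84 (adjusted p = 2.13e-08). HTRA1, a secreted protease that cleaves IGF binding proteins, reached 8.41 in LIM2405 from 5.59 in HCT116, and PAPPA itself lay between 5.69 and 6.21. PAPPA2 and STC1 did not pass, nor did the receptor relative INSRR.

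Of the 15 adaptors and receptor inhibitors 11 passed. GRB10, which binds and inhibits the activated receptors, read 3.98 in SKCO1 against 9.07 to 10.99 in the other 9 lines (adjusted p = 1.71e-05). GRB14, a relative with a like role, ranged from 3.63 in LS174T to 9.37 in CACO2, and the adaptor GAB1 from 5.69 in HCT116 to 8.93, again in CACO2. SHC1, GRB2, GRB7, SH2B2, DOK1, DOK4, PTPN1 and SOCS3 passed too, and IRS4, SH2B1, DOK5 and SOCS1 did not. SKCO1, lowest in GRB10, was also the line with the highest IGF1R by 225330_at and the lowest IRS2.

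All 3 mRNA binding proteins named for IGF2 passed. IGF2BP1 read 10.39 in CACO2 and at most 6.21 in the other lines (adjusted p = 3.81e-09), whereas IGF2BP2 and IGF2BP3 were bright in most lines, with IGF2BP3 lowest in SW48 at 7.95. In the PI3-kinase and AKT arm 17 of 18 passed, TSC2 being the exception, mostly with ranges of 1 to 3. All 3 FOXO factors, which AKT keeps out of the nucleus, passed, and FOXO1 had the widest range, from 5.21 in SKCO1 to 9.69 in LS174T.

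Between MSI and MSS lines 0 of the 52 pathway genes passed the limma test over all probe sets, with 5 of 52 at an unadjusted p under 0.05 beside 5665 of 54613 probe sets. By mean 21 were lower and 31 higher in MSI lines, with a median difference of 0.04. The smallest p was that of PIK3R1, the regulatory subunit of PI3-kinase, with a difference of -1.98 (SE 0.34, adjusted p = 0.0777). PIK3R1 212240_s_at read 7.99 in HCT116, 8.54 in LIM2405, 6.62 in LS174T, 7.31 in RKO and 7.73 in SW48, and in the MSS lines 9.29 in CACO2, 9.32 in HCC2998, 9.48 in HT29, 9.84 in SKCO1 and 10.15 in T84. Its groups did not overlap with any of its 3 probe sets, with differences of -1.98, -1.53 and -1.92. Groups without overlap were found in 2.70% of all probe sets. The 3 probe sets read 1 gene on the same arrays and are not independent. The count became 1 of 52, PIK3R1, when LIM2405 was left out and in 3 other settings. PIK3CD, a catalytic subunit, with 1.36 (adjusted p = 0.388), and the adaptor GRB7, with -1.11 (adjusted p = 0.399), followed.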

How the data were processed

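Deposited values were log2 expression values from Affymetrix arrays, made by the authors with RMA per the submitters' processing notes. The RMA version is not given in the sources used here. Inspection of the values gave the log2 scale. The second deposited table was not used. Of 54675 probe sets, 62 control probe sets were left out. In the platform annotation 41091 of the remaining 54613 name 1 gene, 1801 several and 11721 none. Of the single-gene probe sets, 41037 matched RefSeq genes of GRCh38.p14, and 0 symbols changed. No normalization or filter was added. Arrays have no read depth, so the number of lines limits the precision.

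Arrays were averaged per line. Tests used limma 3.58.1 in R 4.3.3 (lmFit, eBayes, two-sided, Benjamini-Hochberg over all 54613 probe sets, threshold 0.05): a moderated F statistic over 8 contrasts between lines of the same status on 19 arrays, and a moderated t statistic between MSI and MSS on 10 line values. The fits were tested on simulated data. Tables and promoter motifs were made in Python 3.11.15.

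A gene was represented by its brightest single-gene probe set. All probe sets of the 9 genes were named, and pathway genes by passing a test or, with none passing, by the 3 smallest p-values. Further pathway genes and values in the text, chosen among those that passed for their wide range, were picked after their values were seen. Likeness took the 3 highest correlations. Members and lists were chosen with earlier results of these data known. Alternatives were another eBayes trend, centring, a second quantile normalization, a filter on dim probe sets, an equal-variance test, all arrays with the line as a random block, the culture number as a block, the choice of probe set per gene and each line left out.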

Additional observations from a re-analysis of the deposited data

Results flagged for a closer look

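Of 46 groups of 5 lines tested (23 probe sets in each status), 3 held a line set apart from the other 4 by a gap that filled most of the group's range. Chance alone gives about 1 such group in 20. All 3 were among the MSS lines. SKCO1 stood at 11.53 with IGF1R 225330_at, where the other 4 lines ran from 9.67 to 10.07. HCC2998 stood at 8.33 with IGFBP3 210095_s_at, and at 6.79 with IGFBP3 212143_s_at, where the other 4 lines ran from 5.00 to 5.66 and from 4.59 to 5.09. The last 2 are the same line measured by probe sets of 1 gene and are not independent.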

How the results depend on the processing

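The count of probe sets that differed between lines of the same status, 31768, lay between 28174 with a filter on dim probe sets and 32369 with an eBayes trend, and was 31759 with the culture number as a replicate block. Of these 23 probe sets, 20 (without LIM2405) to 22 (replicate block, or without LS174T) were called. IGF2R 1569052_at lost its call without LIM2405 (adjusted p = 0.0651), and INSR 213792_s_at gained it with the replicate block (0.0192) and without LS174T. Of the 52 pathway genes, 37 to 41 were called. The main fits did not pair lines by culture number. Over all probe sets, deviations of same-numbered arrays correlated from -0.21 to 0.27 (median 0.03, 7 of 36 pairs over 0.1). These values show little pairing over all probe sets and do not speak to single probe sets.

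Between MSI and MSS lines the count over all probe sets, 103, depended on the setting. It was 22 with an equal-variance t-test, 1153 with all arrays and the line as a random block, and 1006 with the replicate block added. With a line left out it ran from 29 (without RKO) to 261 (without CACO2), with 33 without SW48, 47 without HCC2998, 48 without HCT116, 56 without SKCO1 and 66 without HT29. The count of pathway genes in it, 0, became 1 with all arrays, with the replicate block added and with the filter on dim probe sets, and ran from 0 to 1 with a line left out. The causes were not tested. Of 390 MSI minus MSS differences of the 23 probe sets under alternatives, 0 moved by 1 SD or more, and 4 probe sets changed sign under some alternative (INSR 226216_at, IRS1 238933_at and 242979_at, IGFBP6 203851_at). The IGF1R difference was -1.34 when its probe sets were averaged and -4.20 when the one with the largest interquartile range stood for it, against -0.70 by the brightest. With 5 lines a group, differences smaller than the spread between lines could not be resolved.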

Other observations

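The 3 probe sets annotated to both INS-IGF2 and IGF2 cannot be given to 1 gene. With 202409_at CACO2 read 13.47, HCT116 8.15 and HT29 8.06, and the other 7 lines lay between 4.76 and 5.33, below the median of all values. With 202410_x_at CACO2 read 9.09 and the other lines lay between 5.53 and 6.02. With 210881_s_at CACO2 read 8.57 and the other lines lay between 5.29 and 5.74. CACO2 was the highest line with all 3, and the lines next to it with 202409_at did not stand out with the other 2. CACO2 was also the line with the highest IGF2BP1, GRB14 and IGFBP7.

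IGF1 passed the test between lines of the same status through a narrow range with its brightest probe set, 211577_s_at. SKCO1 was the highest line there, at 6.86 against 6.10 to 6.33 in the other lines. SKCO1 was also highest with 209542_x_at, at 6.62 against 5.86 to 6.28, and stood further apart with others. With 209540_at SKCO1 read 6.15 and the other lines 3.73 to 3.93, and with 209541_at it read 6.38 and the other lines 3.89 to 4.39. With 241072_s_at SKCO1 did not stand apart: it read 3.39, and the other lines lay between 3.38 in LIM2405 and 3.70 in CACO2. These probe sets were named after their values were seen.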
